A study of Mus musculus with 48 samples.

Results

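The 9 genes P2ry12, P2ry13, Tmem119, Cx3cr1, Sall1, Siglech, Gpr34, Olfml3 and Fcrls are transcribed in the brain mainly by resting, or homeostatic, microglia. They were taken by mouse gene symbol from the 48709 genes counted by RNA sequencing, and all 9 had counts above 0 in every mouse. Microglia are the resident macrophages of the brain. In the resting state they extend fine processes, sense nucleotides released by damaged cells through purinergic receptors, and receive a restraining signal from neurons through the fractalkine receptor. Around amyloid deposits, microglia are known to multiply and also to change state: genes of the resting state are turned down in each cell while lysosomal, lipid and phagocytic genes are turned up. In RNA from whole tissue, fewer cells of a type and less RNA per cell cannot be told apart, and the same holds for more cells and more RNA per cell.

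The 46 mice, given as strain C57BL/6J by the labels and as males by the study, fell into 8 groups. Without amyloid there were 5 wild-type and 5 Fmn2 knock-out mice of 3 months, and 3 wild-type and 5 Fmn2 knock-out mice of 8 months, where Fmn2 is the gene of formin 2, an actin-nucleating protein. A cross of the Fmn2 line with APPPS1-21 mice gave 7 mice labelled Fmn2-/- APP and 9 mice labelled Fmn2+/+ APP, all of 3 months. A separate experiment held 6 APP mice and 6 wild-type mice of 4 months per the labels. APPPS1-21 mice carry transgenes, mutant human APP among them, driven in neurons by the Thy1 promoter, so amyloid was made by neurons and not by microglia.

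The libraries of the 46 mice held 6818809 to 43921030 reads assigned to genes, and levels are given as CPM, counts relative to the library total after TMM scaling over all mice. Markers disagreed with the labels at 3 places, and the groups were kept as labelled. Fmn2 itself stood at 84.2 to 103.7 CPM in the cross mice labelled Fmn2-/- and at 19.2 to 24.2 CPM in those labelled Fmn2+/+, against 93.2 to 113 CPM in wild-type and 23 to 28.1 CPM in knock-out mice of 3 months, so the cross labels ran against this gene. All groups are labelled dentate gyrus, but the titles of the 4-month samples name the prefrontal cortex. In those samples Prox1, a dentate granule cell marker, was at 11.1 to 19.9 CPM while in all other mice it was at 186 to 378 CPM. Thy1, whose promoter drives the transgenes, was at 1830 to 2379 CPM in the 4-month APP mice and 696 to 757 CPM in their wild types. In the cross it ran from 785 to 1894 CPM, with 3 of 16 mice at or below the highest level (920.4 CPM) of the 3-month mice without amyloid. Choroid plexus RNA differed among the Fmn2-line mice, with Ttr up to 8934 CPM in mice labelled Fmn2+/+ APP (replicates 4 and 5) and at 4138 CPM in 1 knock-out mouse of 3 months.

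P2ry12 (chr3:59216272-59262871 of mm10) and P2ry13 (chr3:59207892-59210882) are neighbours on the reverse strand, both inside the gene Med12l, which runs on the forward strand. The other members lie at chr5:113793729-113800516 (Tmem119), chr9:119901616-120069879 (Cx3cr1), chr8:89027235-89044162 (Sall1), chr7:55768178-55778925 (Siglech), chrX:13632089-13640858 (Gpr34), chr3:103722222-103738001 (Olfml3) and chr3:87250758-87263738 (Fcrls), and all 9 are protein-coding. Med12l shared 9 exon bases with P2ry12 and none with P2ry13. The setting for strand in the counting is not given in the sources used here, so reads of P2ry12 and of Med12l over those bases cannot be told apart. Med12l did not pass the test for amyloid at 4 months (log2 fold change 0.018, standard error 0.078, adjusted p = 0.959).

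Microglial genes are controlled by transcription factors that include PU.1, RUNX1 and MEF2 proteins. The 250 bases before the transcription start of 7 of the 9 members were read from RefSeq (GRCm38.p6, the assembly named mm10 in the labels) and searched on both strands for a PU.1 core (GAGGAA), a RUNX core (TGTGGT) and a MEF2 core (CTA and TAG with any 4 bases between them). The RUNX core occurred before 4 members, P2ry13, Cx3cr1, Siglech and Fcrls, and before 14% of all 32851 promoters in the same table. A PU.1 core was found for 2 members, P2ry13 and Fcrls (23.3% of all promoters), and a MEF2 core for Cx3cr1 (3.20% of all promoters). These 4 stretches are shown 5′ to 3′ on the strand of the gene because they held the matches. Capitals mark the cores, which on the opposite strand read TTCCTC for PU.1 and ACCACA for RUNX.
P2ry13, chr3:59210883-59211132, reverse strand: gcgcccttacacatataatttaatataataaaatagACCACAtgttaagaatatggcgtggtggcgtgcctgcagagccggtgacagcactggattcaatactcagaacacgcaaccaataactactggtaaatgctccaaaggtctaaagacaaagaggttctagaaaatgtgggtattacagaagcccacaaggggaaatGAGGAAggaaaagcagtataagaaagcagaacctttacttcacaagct
Fcrls, chr3:87263525-87263774, reverse strand: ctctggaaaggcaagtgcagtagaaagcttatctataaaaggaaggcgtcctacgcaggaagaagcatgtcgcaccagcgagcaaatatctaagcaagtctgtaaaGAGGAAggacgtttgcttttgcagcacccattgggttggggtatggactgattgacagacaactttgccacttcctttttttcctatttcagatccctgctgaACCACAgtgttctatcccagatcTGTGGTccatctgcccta
Cx3cr1, chr9:120068297-120068546, reverse strand: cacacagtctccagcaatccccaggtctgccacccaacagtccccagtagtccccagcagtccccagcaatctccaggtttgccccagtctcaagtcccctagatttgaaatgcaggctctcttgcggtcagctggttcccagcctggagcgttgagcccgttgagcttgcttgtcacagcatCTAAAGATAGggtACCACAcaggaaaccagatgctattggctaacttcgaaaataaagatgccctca
Siglech, chr7:55767934-55768183, forward strand: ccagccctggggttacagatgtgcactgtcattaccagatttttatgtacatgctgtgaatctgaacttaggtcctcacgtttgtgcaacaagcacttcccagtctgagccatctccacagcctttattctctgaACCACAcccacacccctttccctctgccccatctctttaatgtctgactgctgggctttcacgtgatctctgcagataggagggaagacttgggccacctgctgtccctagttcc
In P2ry13 the RUNX core began 214 bases and the PU.1 core 48 bases before the start. In Fcrls the PU.1 core began 144 bases before the start and a pair of RUNX cores 41 and 18 bases before it. The MEF2 and RUNX cores of Cx3cr1 began 67 and 54 bases before its start, and the RUNX core of Siglech 115 bases before its start. A match of letters is a description of the sequence and not evidence of a bound site.

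Per kilobase of exon, P2ry12 was the most abundant member in 7 of the 8 groups, for example 26.9 ± 2.64 CPM per kilobase (SD, n = 5) in wild-type mice of 3 months, where Cx3cr1 followed at 8.49 ± 0.734 and Fcrls was lowest at 1.24 ± 0.350. In the APP mice of 4 months the order differed: Fcrls was highest at 24.8 ± 3.31 CPM per kilobase (SD, n = 6), with P2ry12 at 19.5 ± 2.37 and Cx3cr1 at 16.9 ± 1.69. Fcrls, a microglial Fc receptor-like surface protein, had the widest range of all members. Its level was 2.04 to 5.05 CPM in the 18 mice of the Fmn2 line without amyloid, 4.28 to 23.3 CPM in the 16 cross mice, 23.3 to 27.5 CPM in the 4-month wild types and 52.6 to 72.9 CPM in the 4-month APP mice. The lowest 4-month wild type (23.29 CPM) thus stood level with the highest cross mouse (23.27 CPM), across a difference of tissue and experiment. P2ry12 had nearly the opposite order. It was highest in wild-type mice of 3 months (68.5 ± 6.72 CPM, SD, n = 5) and lowest in wild-type mice of 4 months (34.3 ± 2.18 CPM, SD, n = 6), and each group overlapped the next one in the order.

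**Figure D1:**
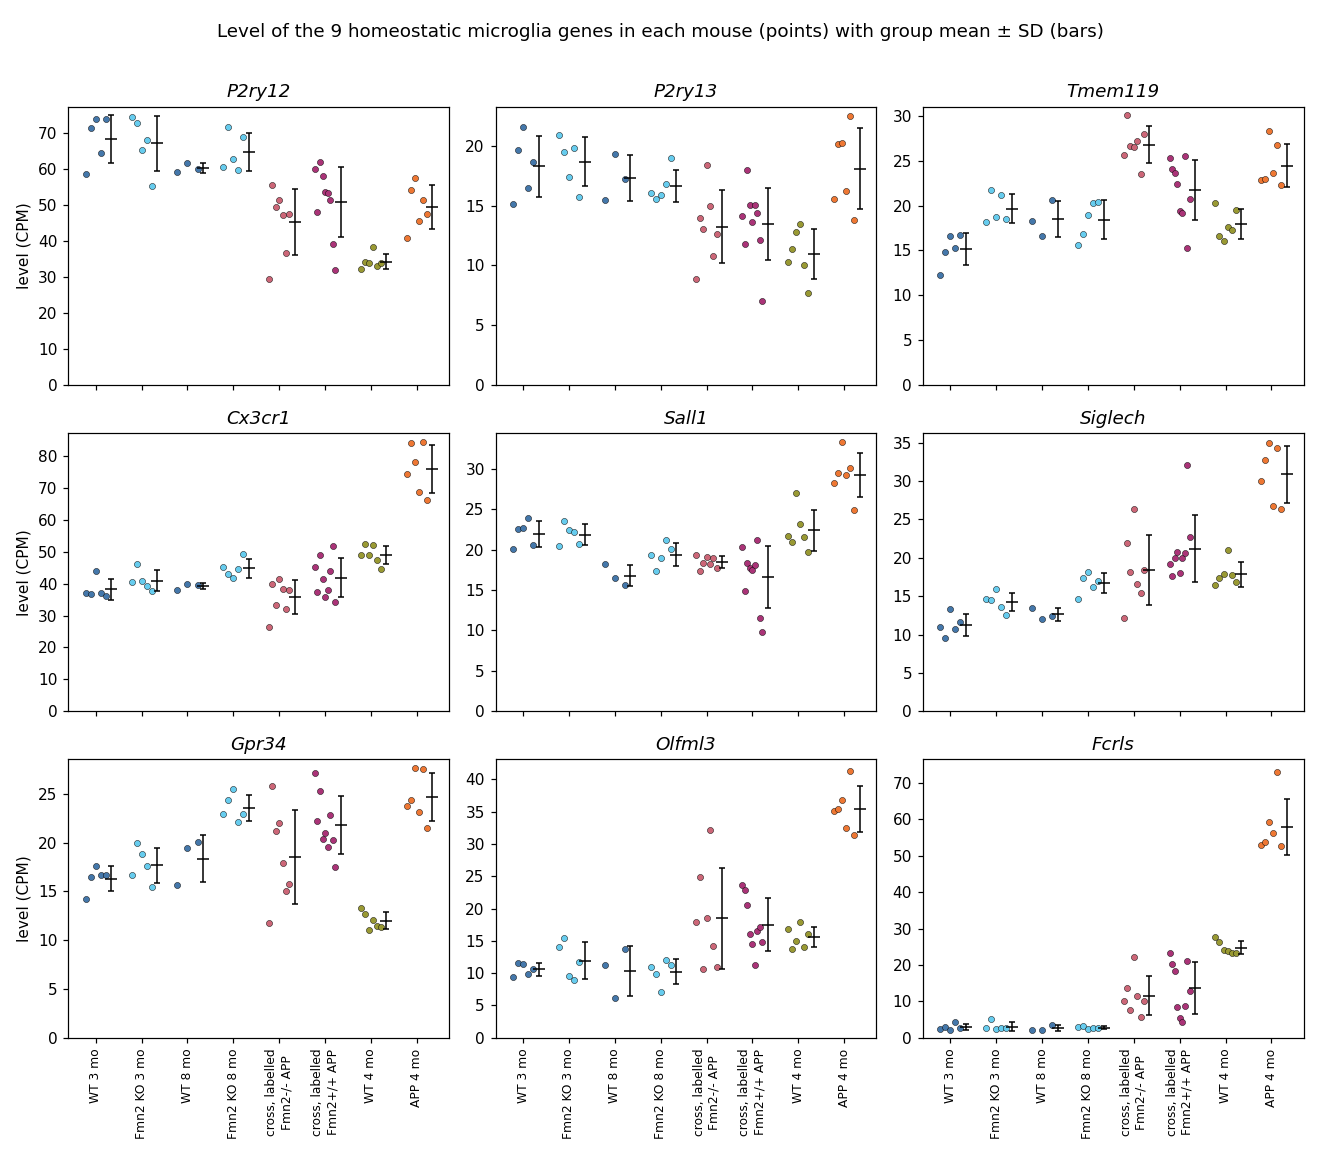
Level of each of the 9 genes (vertical axis, CPM) in each of the 46 mice (points), by group, with the group mean ± SD (bars). Every APP mouse of 4 months sits above every 4-month wild type for 8 genes, and for Sall1 the groups overlap, whereas the cross mice lie partly below the 3-month mice without amyloid for P2ry12, P2ry13 and Sall1 and above them for Fcrls.

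The comparison of APP with wild-type mice of 4 months asked what amyloid does to gene expression when Fmn2 is intact. All 9 members were higher in APP mice at an adjusted p under 0.05, by the quasi-likelihood test of edgeR adjusted by Benjamini-Hochberg over all genes tested, against 2.93% of the 16733 genes tested that were called higher and 0.873% that were called lower. In 8 of the 9 members every APP mouse stood above every wild-type mouse, which held for 2.61% of genes. The median log2 fold change of the members was 0.73, and that of all genes -0.00041. Genes with the largest rise were Fcrls, Olfml3 and Gpr34, each over 2-fold. All 6 APP libraries were sequenced on lane 7 and all 6 wild-type libraries on lane 5, so lane and genotype cannot be told apart here.

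Of the purinergic receptors, P2ry12 binds ADP and directs microglial processes to sites of damage. Its level in the APP mice ran from 40.9 CPM over a median of 49.5 to 57.5 CPM, and in the wild types from 32.3 over 33.9 to 38.5 CPM. Every APP mouse was above every wild type, by 1.44-fold on average (log2 fold change 0.53, standard error 0.073, adjusted p = 0.000125). P2ry13, a second ADP receptor, reached 13.8, 18.2 and 22.5 CPM (lowest, median and highest) in APP mice and 7.65, 10.8 and 13.4 CPM in wild types. The groups came close but did not overlap, and the rise was 1.66-fold (log2 0.73, standard error 0.13, adjusted p = 0.00226).

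Cx3cr1, the receptor for the neuronal chemokine fractalkine, stood at 66.3, 76.3 and 84.3 CPM in APP mice and at 44.6, 48.9 and 52.4 CPM in wild types. The gap between the groups exceeded the range within the wild types, and the rise was 1.55-fold (log2 0.63, standard error 0.063, adjusted p = 2.53e-06). The gene of its ligand, Cx3cl1, was lower in APP mice (log2 fold change -0.24, called). Gpr34, a receptor for lysophosphatidylserine, was at 21.5, 24.1 and 27.7 CPM in APP mice and at 11.1, 11.8 and 13.3 CPM in wild types, with no overlap and a 2.06-fold rise (log2 1.04, standard error 0.074, adjusted p = 2.93e-08).

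Siglech, a sialic acid-binding lectin of microglia, was measured at 26.4, 31.4 and 35.0 CPM in APP mice and 16.4, 17.6 and 20.99 CPM in wild types. The groups did not overlap, although the highest wild type, replicate 4, stood clear of the others, and the rise was 1.73-fold (log2 0.79, standard error 0.082, adjusted p = 4.59e-06). Fcrls ran at 52.6, 55.0 and 72.9 CPM in APP mice and 23.3, 23.97 and 27.5 CPM in wild types. No wild type came near the APP mice, and the 2.34-fold rise was the largest among the members (log2 1.22, standard error 0.076, adjusted p = 5.24e-09).

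Tmem119, a membrane protein used as a microglial marker, was at 22.3, 23.3 and 28.3 CPM in APP mice and at 16.1, 17.5 and 20.3 CPM in wild types. These ranges did not touch, and the rise was 1.36-fold (log2 0.45, standard error 0.075, adjusted p = 0.000952). Olfml3, a secreted matrix protein, stood at 31.3, 35.2 and 41.3 CPM in APP mice and 13.8, 15.6 and 17.9 CPM in wild types. The ranges lay far apart, and the rise was 2.27-fold (log2 1.18, standard error 0.078, adjusted p = 1.05e-08). Sall1, a transcription factor needed to maintain microglial identity, was the member with overlapping groups, at 24.9, 29.3 and 33.3 CPM in APP mice and 19.8, 21.7 and 27.1 CPM in wild types. It still passed the test with a 1.31-fold rise (log2 0.38, standard error 0.079, adjusted p = 0.00629).

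Genes shared by microglia and other myeloid cells rose more than most members did. All 14 of a core myeloid list were higher in APP mice (median log2 fold change 0.99, lowest 0.63, highest 1.65), among them Laptm5, a lysosomal membrane protein of blood-lineage cells (1.21, standard error 0.070), Ptprc, the CD45 phosphatase (1.63, standard error 0.11), and Csf1r, the survival receptor of microglia (0.75). The summed level of this list was 365 to 492 CPM in APP mice and 216 to 239 CPM in wild types, while that of the 9 members was 307 to 391 and 193 to 220 CPM. A further list of 14 resting-state genes had 9 higher and none lower (median 0.47), among them Selplg, a selectin ligand (0.86), and Slco2b1, an organic anion transporter (0.59). Plaque-associated genes gave 14 higher of 15 tested (median 1.24). Among these, Cst7, an inhibitor of lysosomal cathepsins, was at 29.4 to 40.2 CPM in APP mice and at 0 to 0.258 CPM in wild types, Itgax, an integrin subunit, at 9.75 to 13.4 and 0.175 to 0.592 CPM, and Trem2, a lipid-sensing receptor, at 41.9 to 61.7 and 11.9 to 16.2 CPM. Of 15 genes for ligands and regulators of the members' pathways, 7 were higher and 1 lower, including the TGF-beta receptor genes Tgfbr2 (0.78) and Tgfbr1 (0.69), which carry the signal that maintains the resting state, and Csf1 (0.51), a ligand of Csf1r. Border macrophage genes gave 0 called of 6 tested, with 2 at an unadjusted p under 0.05 and a summed level of 9.34 to 11.9 CPM in APP mice and 6.93 to 10.7 CPM in wild types. None of 8 genes of blood monocytes and neutrophils passed the filter on low counts, and Ccr2, the monocyte chemokine receptor, was at 0.186 to 0.672 CPM in APP mice and 0.0507 to 0.473 CPM in wild types.

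Other cell types also moved. Among astrocyte genes 2 of 8 were higher, Gfap, an intermediate filament protein, by 2.10 and Aqp4, a water channel, by 0.30 on the log2 scale. All 8 oligodendrocyte genes lay below 0 (median -0.76), with 1 called, and 1 wild-type library had a summed level of 6419 CPM for these genes against a group median of 2555 CPM. The part of these shifts in the members' results was not tested.

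The rise of a member was then set against the mean rise of the core myeloid list. The same test was repeated with each library scaled to its mean log level of the 14 core myeloid genes, which gives a member's change relative to that list. On this scale 6 members were lower in APP mice, Fcrls was higher and 2 were not called. The background of this count is unlike the first: the median of all genes moved to -1.02, and 97.3% of genes were called lower and 0.58% higher, since brain RNA as a whole did not follow the myeloid list. The count therefore says only how each member moved relative to the myeloid list.

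Relative to the core list, Sall1 fell by 0.64 (log2, standard error 0.093, adjusted p = 4.59e-08), Tmem119 by 0.58 (standard error 0.097, adjusted p = 7.2e-07) and P2ry12 by 0.49 (standard error 0.093, adjusted p = 5.62e-06), all from edgeR's quasi-likelihood test. Cx3cr1 fell by 0.40 (standard error 0.084, adjusted p = 3.69e-05), P2ry13 by 0.30 (standard error 0.11, adjusted p = 0.0114) and Siglech by 0.24 (standard error 0.091, adjusted p = 0.0120). The 3 members with the largest rise per library did not fall on this scale. Gpr34 differed from it by 0.012 (standard error 0.094, adjusted p = 0.901), Olfml3 by 0.16 (standard error 0.094, adjusted p = 0.106) and Fcrls by 0.20 (standard error 0.094, adjusted p = 0.0398). The direction of P2ry12, P2ry13, Tmem119, Cx3cr1, Sall1 and Siglech under amyloid thus depended on the scale: up per library and down against the mean of this list. Per library the core genes rose by 0.63 to 1.65. P2ry12, Tmem119 and Sall1 rose less than every core gene, and Cx3cr1 (0.6292) lay just under the lowest of them (0.6296). P2ry13 (0.73) and Siglech (0.79) lay within the range of the core genes, so their fall depends on which core genes are taken.

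**Figure D2:**
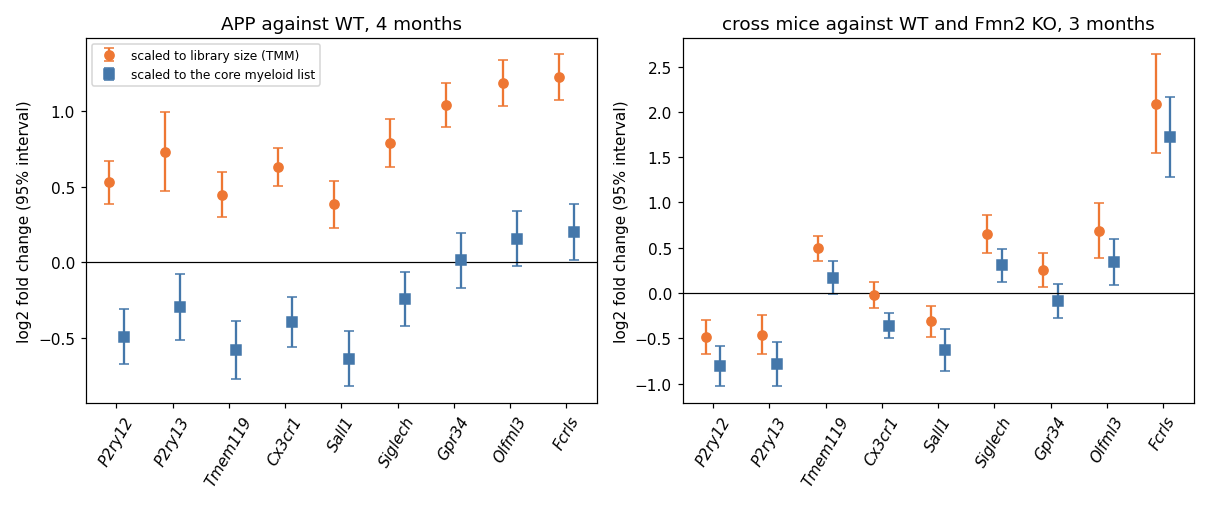
Log2 fold change with its 95% interval (vertical axis) of each member (horizontal axis) under library-size scaling (circles) and scaling to the core myeloid list (squares), for APP against wild-type mice of 4 months and for cross mice against 3-month mice without amyloid. In the first comparison 6 of the 9 genes lie above 0 on the first scale and below 0 on the second; in the second comparison P2ry12, P2ry13, Sall1 and Cx3cr1 lie below 0 on both, Fcrls, Olfml3, Siglech and Tmem119 above 0 on both, and Gpr34 on either side.

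The level of each member minus the mean level of the core list, both as log2 CPM with a pseudocount of 0.5, shows the same in single mice. For P2ry12 this difference was 1.02 to 1.51 in the 6 APP mice and 1.73 to 1.93 in the 6 wild types. For Tmem119 it was 0.19 to 0.49 and 0.70 to 1.10, and for Sall1 0.49 to 0.79 and 1.12 to 1.44. Each of these pairs of ranges was separate, as was that of Cx3cr1 (1.86 to 2.14 and 2.27 to 2.46). P2ry13, Siglech, Gpr34, Olfml3 and Fcrls had overlapping ranges. Averaged over the 9 members, the difference was 0.69 to 0.94 in APP mice and 1.03 to 1.14 in wild types, again without overlap. The share of all genes with separate ranges on this scale was not computed. With libraries scaled to the core list, 97.3% of the 16733 genes tested were called lower, so separate ranges by themselves say little.

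**Figure D3:**
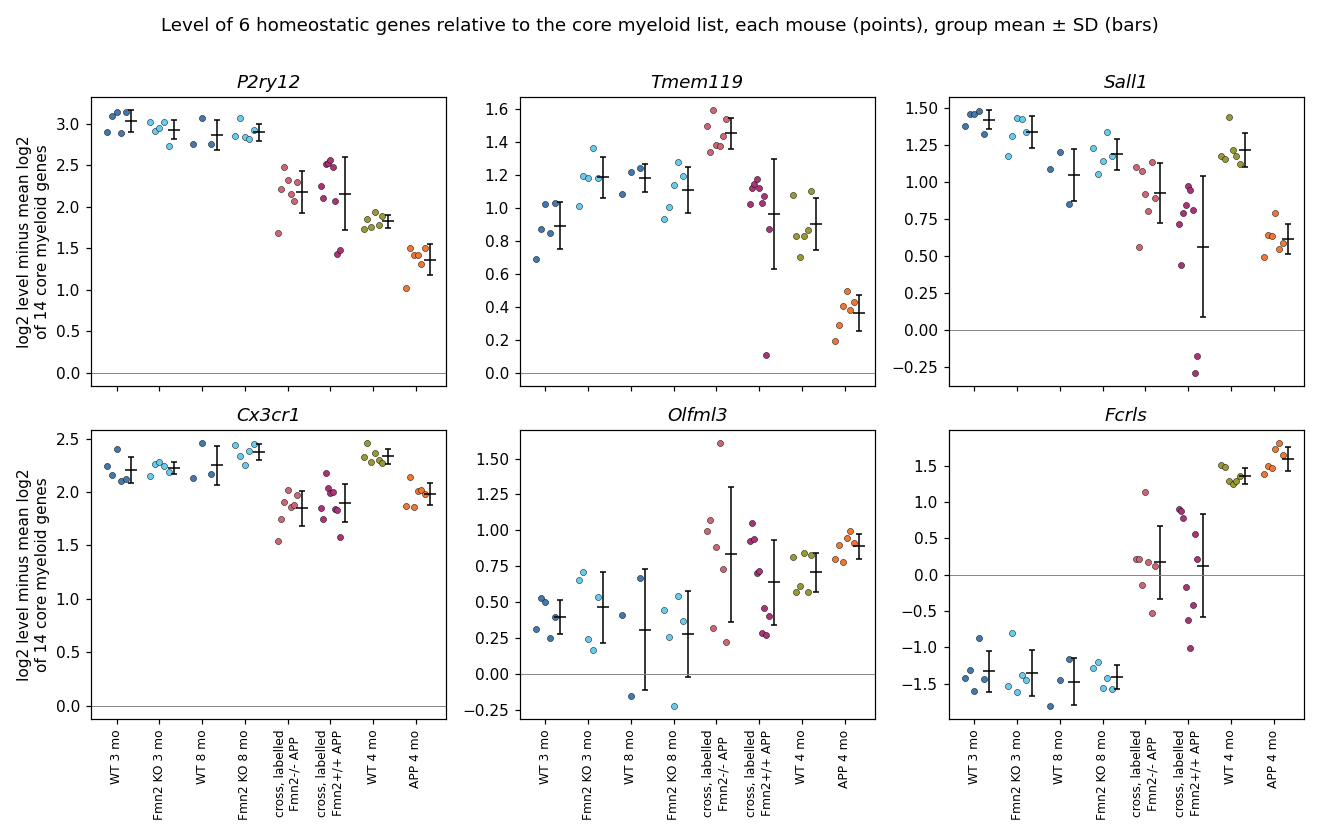
Log2 level of 6 members minus the mean log2 level of the 14 core myeloid genes (vertical axis) in each mouse (points), by group, with mean ± SD (bars). P2ry12, Tmem119, Sall1 and Cx3cr1 of the 4-month APP mice lie below their wild types without overlap, and mice labelled Fmn2+/+ APP include 2 with Sall1 below 0.

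For amyloid in the dentate gyrus, the 16 cross mice of both labels were compared with the 10 wild-type and Fmn2 knock-out mice of 3 months, as the mean of 2 groups against the mean of 2 groups. This contrast weighs both Fmn2 labels equally, so it does not rest on which cross label is right. The experiments coincide with the APP label, and cannot be told apart from it. Thy1 was at or below 920.4 CPM in replicates 1 and 7 labelled Fmn2-/- and replicate 4 labelled Fmn2+/+. Cst7, a plaque-associated gene, was at 0, 0.115 and 0.0636 CPM in these mice. P2ry12 was at 29.3 and 36.7 CPM in the named mice labelled Fmn2-/-. Its log2 level minus the mean of the core myeloid list was 1.69 and 2.07 in those mice. In the named mouse labelled Fmn2+/+ it was 2.56, the highest under that label. Whether the named mice held amyloid was not tested. Of the 9 members 5 were called higher and 3 lower, against 25.6% and 23.8% of the 17599 genes tested, so a call by itself says little here. The median of the members was 0.25 and that of all genes 0.019. No member had groups that did not overlap.

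Fcrls showed the largest difference. The wild types of 3 months had 2.44, 2.89, 2.26, 4.30 and 2.60 CPM and the knock-out mice 2.70, 5.05, 2.27, 2.75 and 2.58 CPM. The cross mice had 5.64, 10.2 and 22.2 CPM (lowest, median and highest) when labelled Fmn2-/- and 4.28, 12.97 and 23.3 CPM when labelled Fmn2+/+. All cross mice but 1 stood above every mouse without amyloid, and the fold was 4.25 (log2 2.09, standard error 0.28, adjusted p = 8.6e-07). Olfml3 was higher by 0.69 (standard error 0.16, adjusted p = 0.000691), at 8.97 to 15.4 CPM without amyloid and 10.7 to 32.2 CPM in the cross. Siglech was higher by 0.65 (standard error 0.11, adjusted p = 1.3e-05), at 9.54 to 15.9 and 12.1 to 32.1 CPM, and Tmem119 by 0.49 (standard error 0.070, adjusted p = 2.05e-06), at 12.3 to 21.7 and 15.3 to 30.2 CPM. Gpr34 was higher by 0.25 (standard error 0.095, adjusted p = 0.0313), a call that was lost without wild-type replicate 1 (adjusted p = 0.0537) or knock-out replicate 6 (adjusted p = 0.0617).

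The ADP receptors and Sall1 went the other way. P2ry12 had 58.6, 71.4, 73.9, 64.6 and 73.9 CPM in the wild types and 74.7, 72.9, 65.4, 68.1 and 55.4 CPM in the knock-out mice. In the cross its lowest, median and highest levels were 29.3, 47.6 and 55.7 CPM under the Fmn2-/- label and 32.0, 53.4 and 61.9 CPM under the Fmn2+/+ label. 12 of the 16 cross mice were below every mouse without amyloid, and P2ry12 differed by -0.49 (log2, standard error 0.095, adjusted p = 0.000137). P2ry13 fell by 0.46 (standard error 0.11, adjusted p = 0.00117), from 15.1 to 21.6 CPM without amyloid, to 6.99 to 18.4 CPM in the cross. Sall1 fell by 0.31 (standard error 0.086, adjusted p = 0.00361), from 20.1 to 23.9 CPM to 9.78 to 21.2 CPM. Its lowest levels were in replicates 8 and 9 labelled Fmn2+/+ APP (11.5 and 9.78 CPM), which also had low P2ry12 (39.2 and 32.0 CPM). Without these 2 mice P2ry12 still fell by 0.42 and P2ry13 by 0.39, and 8 members were called. Without replicates 4 and 5 of that label, which held the choroid plexus RNA, 8 members were called as well. Cx3cr1 did not pass the test, with a log2 fold change of -0.024 (95% interval -0.16 to 0.12).

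Scaled to the core myeloid list, 3 members were higher (Fcrls 1.72, Olfml3 0.34, Siglech 0.31) and 4 lower (P2ry12 -0.81, P2ry13 -0.78, Sall1 -0.63, Cx3cr1 -0.36), against 5.08% and 53.7% of all genes and a median of all genes of -0.30. Tmem119 (0.17) and Gpr34 (-0.084) were not called on this scale. The core list itself had 9 of 14 genes higher (median 0.30), led by Ly86, a subunit of an endotoxin-receptor complex (0.82), and the plaque-associated list 12 higher and 1 lower of 16 (median 1.01). Cst7 ran from 0 to 12.3 CPM in the cross mice, from the level of mice without amyloid to under the lowest of the 4-month APP mice. Alongside, all 8 oligodendrocyte genes and 6 of 8 cortical neuron genes were lower, 4 of 8 granule cell genes, 5 of 8 border macrophage genes and 1 of 2 tested genes of blood monocytes and neutrophils (S100a9) were higher. Border macrophage RNA summed to 5.99 to 21.8 CPM without amyloid and 9.16 to 39.5 CPM in the cross. The part of these shifts in the members' results was not tested.

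The difference between the amyloid effect at 4 months and that in the cross was tested as a contrast over 38 mice. Of the 9 members 5 were called, each with the higher effect at 4 months, against 12.1% of the 18276 genes called higher and 13.2% called lower. The effects differed by 1.18 for P2ry13 (log2, standard error 0.20, adjusted p = 3.15e-05), 1.01 for P2ry12 (standard error 0.15, adjusted p = 1.03e-05) and 0.78 for Gpr34 (standard error 0.15, adjusted p = 0.0002). Sall1 differed by 0.69 (standard error 0.14, adjusted p = 0.000291) and Cx3cr1 by 0.64 (standard error 0.12, adjusted p = 9.02e-05). Tissue, age and experiment differ together between the comparisons and cannot be told apart. Olfml3 (0.48, adjusted p = 0.124), Siglech (0.12, adjusted p = 0.63), Tmem119 (-0.055, adjusted p = 0.771) and Fcrls (-0.88, adjusted p = 0.0794) did not pass the test, and their 95% intervals were 0.030 to 0.94, -0.20 to 0.45, -0.28 to 0.17 and -1.61 to -0.15. Without knock-out replicate 2 of 3 months, the mouse with the highest Fcrls in its group, Fcrls was called (-0.99, adjusted p = 0.0467). Scaled to the core myeloid list, the difference remained for P2ry13 (0.48, adjusted p = 0.0342), was not called for P2ry12 (0.31) or Gpr34 (0.097), and changed sign for Cx3cr1 (-0.035) and Sall1 (-0.013). On the same scale 3 members were called with the lower effect at 4 months, Fcrls (-1.52, adjusted p = 4.96e-05), Tmem119 (-0.75, adjusted p = 2.56e-05) and Siglech (-0.55, adjusted p = 0.000801).

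Loss of Fmn2 gave no call among the 9 members at either age. At 3 months 0 of 9 passed edgeR's test, against 0.0301% of 16630 genes. At an unadjusted p under 0.05 there were 2 members, and 1750 of all genes. The larger difference of these was that of Tmem119, with 12.3, 14.8, 16.6, 15.3 and 16.7 CPM in wild types and 18.1, 21.7, 18.7, 21.2 and 18.5 CPM in knock-out mice. Its groups did not overlap, with a difference of 0.35 (log2, standard error 0.087, adjusted p = 0.215). The share of all genes without overlap was not computed here. Siglech was at 10.99, 9.54, 13.4, 10.7 and 11.6 CPM and at 14.6, 14.5, 15.9, 13.7 and 12.6 CPM, which gave 0.31 (log2, standard error 0.094, adjusted p = 0.287) with overlapping groups. DESeq2 called Tmem119 alone (adjusted p = 0.0282). The other 7 members lay between -0.050 (P2ry12) and 0.15 (Olfml3), with adjusted p of 0.736 or above. All wild types were sequenced on lane 5 and 4 of the 5 knock-out mice on lane 6.

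At 8 months again 0 of 9 members passed edgeR's test, against 1.13% of 14665 genes. At an unadjusted p under 0.05 there were 4 members, and 3419 of all genes. All 9 log2 fold changes were above 0 (median 0.25), as were 10 of 14 in the core myeloid list (median 0.23) and 0 of 8 oligodendrocyte genes (median -0.22), and the part of these lists in the members' values was not tested. Siglech was at 13.5, 11.98 and 12.4 CPM in the wild types and 14.7, 17.4, 18.1, 16.2 and 17.02 CPM in the knock-out mice, without overlap (log2 0.45, standard error 0.10, adjusted p = 0.0511). Gpr34 was at 15.6, 19.4 and 20.03 CPM and at 22.9, 24.4, 25.5, 22.1 and 22.9 CPM, also without overlap (log2 0.45, standard error 0.12, adjusted p = 0.0718). DESeq2 called both. Sall1 (0.26), Cx3cr1 (0.25), Fcrls (0.25) and P2ry12 (0.16) followed, and Olfml3 was at 0.017. Of these, Cx3cr1 had no overlap either, at 38.2 to 40.0 CPM in wild types and 41.7 to 49.4 CPM in knock-out mice. Non-overlap thus held for 3 of 9 members, between groups of 3 and 5 mice. The share of all genes without overlap was not computed at this age either. The wild-type libraries held 43921030, 6818809 and 8381078 reads, and without wild-type replicate 2, the shallowest, 3 members (Siglech, Gpr34 and Cx3cr1) and 3418 genes were called.

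Between mice labelled Fmn2-/- APP and those labelled Fmn2+/+ APP, 0 of 9 members passed, against 1.57% of 16656 genes. At an unadjusted p under 0.05 there were 2 members, and 2772 of all genes. Tmem119 was at 23.5, 26.6 and 30.2 CPM under the first label and 15.3, 22.4 and 25.6 CPM under the second (log2 0.30, standard error 0.090, adjusted p = 0.0961), with overlapping groups. It was called by DESeq2 (adjusted p = 0.0371). The mice with the higher Tmem119 were thus those labelled Fmn2-/-, whose Fmn2 level was that of wild types. Cx3cr1 gave -0.23 (standard error 0.10, adjusted p = 0.253) and P2ry12 -0.17 (standard error 0.14, adjusted p = 0.582). Intervals for Fcrls (-0.92 to 0.44) and Olfml3 (-0.34 to 0.49) left room for changes in either direction.

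With age, the mean of both 8-month groups was compared with the mean of both 3-month groups. Gpr34 (log2 0.36, standard error 0.071, adjusted p = 0.00247) and Siglech (0.27, standard error 0.067, adjusted p = 0.0105) were higher at 8 months, and Sall1 was lower (-0.20, standard error 0.055, adjusted p = 0.0198), against 6.48% of 17046 genes called higher and 5.94% called lower. Sall1 was at 20.1 to 23.9 CPM at 3 months and 15.6 to 21.2 CPM at 8 months, with overlap. Its call was lost without wild-type replicate 3 of 8 months (adjusted p = 0.0516), and Cx3cr1 was gained (0.16 with all mice, adjusted p = 0.0583) without any of 3 other mice. Lane and age nearly coincide, and with lane as a covariate 0 members and 1 gene were called, with Gpr34 at -0.066. P2ry12 (-0.044, 95% interval -0.17 to 0.077) did not pass the test. Its levels at 8 months were 59.3, 61.8 and 59.98 CPM in wild types and 60.7, 71.8, 62.8, 59.9 and 69.1 CPM in knock-out mice, within the range of the 3-month mice.

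**Figure D4:**
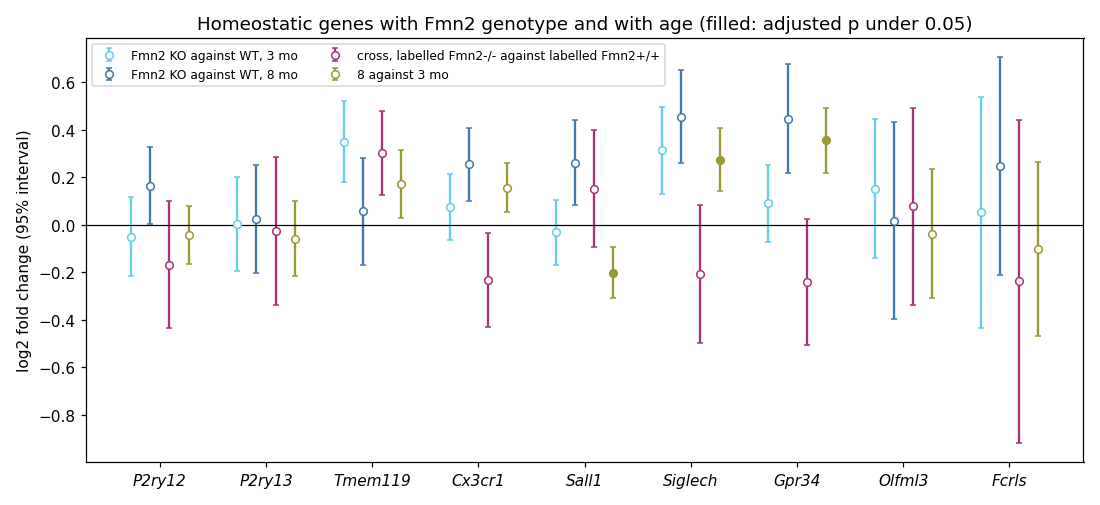
Log2 fold change with its 95% interval (vertical axis) of the 9 members (horizontal axis) for Fmn2 knock-out against wild type at 3 and at 8 months, for the 2 labels of the cross, and for 8 against 3 months. Filled points passed the test: Gpr34, Siglech and Sall1 with age.

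Within groups the members did not vary as a single unit. With group means removed, Pearson's r of log2 CPM over the 46 mice ranged from -0.22 (Sall1 and Siglech) to 0.80 (P2ry12 and P2ry13) over 36 pairs, with a median of 0.36. P2ry12, P2ry13, Gpr34 and Cx3cr1 rose and fell together from mouse to mouse (0.55 to 0.80), and Fcrls went with Olfml3 (0.55) but hardly with P2ry12 (0.083). Over 14743 genes of at least 1 CPM, those with the highest mean r to the 9 members were Smpdl3b (0.50), Selplg (0.47), Cxcl12 (0.44), Ctdnep1 (0.44) and Lmcd1 (0.43). All values in a mouse come from 1 library and share its depth and cell makeup, and the correlations are given as a description.

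**Figure D5:**
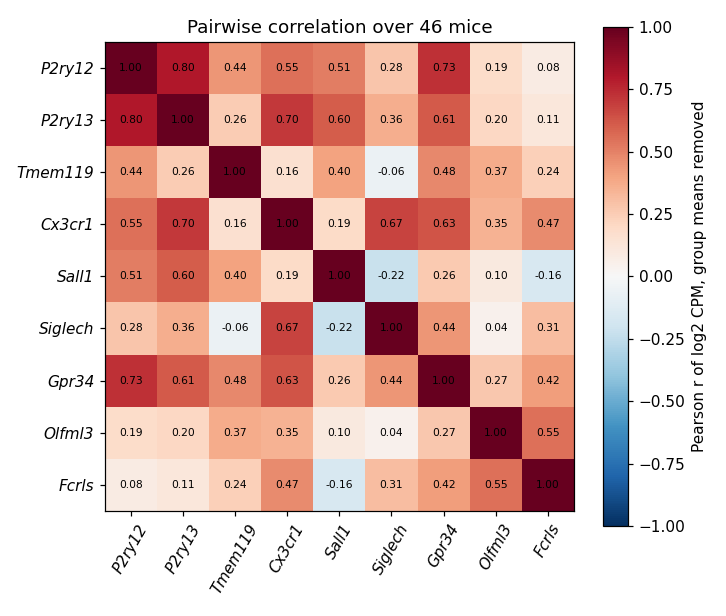
Pearson's r of log2 CPM for each pair of the 9 members over 46 mice after removal of group means (colour and number). The P2ry12, P2ry13, Cx3cr1 and Gpr34 pairs are at 0.55 or above, and Sall1 is below 0 with Siglech and Fcrls.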

How the data were processed

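RNA from whole tissue of 46 mice (48 runs, with the 2 runs of a mouse summed) was measured. Per the labels and the study's methods, the authors aligned reads to mm10 with STAR and made the deposited counts per gene with HTSeq, and these raw counts are not normalized. The strand setting and the annotation release are not given in the sources used here. Genes were named from GENCODE M21 (48349 of 48709 matched). Counts were scaled by TMM, filtered with filterByExpr and tested with the quasi-likelihood test of edgeR 4.0.16 in R 4.3.3, with limma 3.58.1, at a Benjamini-Hochberg adjusted p under 0.05. Intervals are 1.96 standard errors either side. DESeq2 1.42.0, other scalings, filters, covariates and left-out mice were alternatives. The test recovered known changes in simulated data before use. These changes were larger than those of the members with Fmn2 genotype or age, and the simulation had no lane or cell makeup differences.

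The members and lists were chosen with earlier results of these data known. The rule for named genes was all 9 members, the 3 called genes of lowest adjusted p of each list in each amyloid comparison, fixed markers and the 5 genes most similar in pattern, of which only genes that bear on a member are named. Same-numbered mice did not deviate together in every pair of any comparison (r from -0.35 to 0.28), so numbers were not taken as pairs. Knock-out replicates 2 and 3 of 8 months differed less (chi-square per degree of freedom 1.62) than other pairs of their group (3.50 to 6.40). Repeat runs of single cross mice gave 1.72 and 2.15, so this pair was as close as repeat runs. They were kept as separate mice, as labelled, and whether they are was not tested. Summed as 1 sample, they left 5 genes called for Fmn2 at 8 months instead of 166. The study calls the controls of the Fmn2 line littermates, but no label ties a mouse to a litter, and p-values measure the spread between these mice. Some genes that the rule named are not reported here.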

Additional observations from a re-analysis of the deposited data

Results flagged for a closer look

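In 6 of 63 pairs of a member and a group, 1 mouse stood farther from the rest than Dixon's 95% limit, and chance alone gives about 1 in 20. P2ry12 was at 38.5 CPM in wild-type replicate 4 of 4 months (next 34.1), and Siglech in the same mouse at 20.99 CPM (next 17.8). Cx3cr1 was at 44.1 CPM in wild-type replicate 3 of 3 months (next 37.2). Siglech was at 32.1 CPM in replicate 8 labelled Fmn2+/+ APP (next 22.7). Fcrls was at 5.05 CPM in knock-out replicate 2 of 3 months (next 2.75) and at 72.9 CPM in APP replicate 5 of 4 months (next 59.3).

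The amyloid contrasts differed between the 4-month experiment and the cross, by a test of the difference itself, for P2ry12 (1.01 on the log2 scale), P2ry13 (1.18), Cx3cr1 (0.64), Sall1 (0.69) and Gpr34 (0.78), each higher at 4 months. Tissue, age and experiment differ together between these contrasts, and lane goes with genotype at 4 months. None of these can be told apart from amyloid here. On the scale of the core myeloid list P2ry13 alone of these 5 was still called (0.48), P2ry12 (0.31) and Gpr34 (0.097) were not, Cx3cr1 (-0.035) and Sall1 (-0.013) changed sign, and Fcrls (-1.52), Tmem119 (-0.75) and Siglech (-0.55) were called lower.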

How the results depend on the processing

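The 9 calls at 4 months held in number with DESeq2, RLE size factors, no filter on low counts, the replicate block and each mouse left out (9 to 9 members), and a fold minimum left 7 (without Tmem119 and Sall1). Scaling to the core myeloid list turned P2ry12 to -0.49, P2ry13 to -0.30, Tmem119 to -0.58, Cx3cr1 to -0.40, Sall1 to -0.64 and Siglech to -0.24 there, Gpr34 to -0.084 in the cross against 3 months, P2ry13 to 0.14 between the cross labels, and the differences between the amyloid effects to -0.035 (Cx3cr1), -0.013 (Sall1), -0.55 (Siglech) and -0.19 (Olfml3). At 4 months all 14 core genes rose, and between the cross labels 12 of 14 lay below 0.

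For Fmn2 at 3 months DESeq2 called 1 member, and for 8 months 2, as did the fit without a filter (2). For the cross labels DESeq2 and the length and GC offset called 1 each. A fold minimum left 3 members for the cross against 3 months. For age, the replicate block called 1, the block with the length and GC offset 1, and the lane covariate 0. Leaving out 1 mouse gave 0 to 0 members at 3 months, 0 to 3 at 8 months, 0 to 0 for the cross labels, 7 to 8 for the cross against 3 months, 2 to 4 for age and 5 to 6 for the difference of the amyloid effects.

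Other values changed sign in some fits, and each was short of the threshold in the fit where its sign changed. For Fmn2 at 3 months these were P2ry13 (-0.0012 with DESeq2, -0.00047 with RLE factors), P2ry12 (0.034 with the replicate block, 0.012 with the offset, 0.10 with both, 0.11 with lane) and Fcrls (-0.0066 with the block, -0.012 with both, -0.11 with lane). At 8 months they were P2ry13 (-0.065 with the block, -0.0089 with the offset, -0.098 with both, -0.11 with lane), Tmem119 (-0.068 and -0.0040 with block and lane), Olfml3 (-0.084 with the block, -0.087 with both) and Fcrls (-0.033 with lane). Between the cross labels they were Olfml3 (-0.0025 with the block, -0.00023 with both, -0.031 without replicates 4 and 5 labelled Fmn2+/+), P2ry13 (0.054 with the offset) and Fcrls (0.042 with both). The others were Cx3cr1 in the cross against 3 months (0.00079 without replicates 4 and 5), Tmem119 in the difference of the amyloid effects (0.040 with the offset, 0.017 with both), and, with age and lane, Tmem119 (-0.020), Gpr34 (-0.066) and Olfml3 (0.19). Of all these, only Gpr34 with age had passed edgeR's test in the main fit (0.36, adjusted p = 0.00247). The cause of the sign changes was not tested.

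With 1 mouse left out, values that changed sign ranged at 3 months from -0.098 to 0.011 (P2ry12), -0.052 to 0.063 (P2ry13), -0.065 to 0.0064 (Sall1) and -0.20 to 0.25 (Fcrls), at 8 months from -0.11 to 0.13 (P2ry13), -0.0040 to 0.15 (Tmem119), -0.17 to 0.21 (Olfml3) and -0.034 to 0.52 (Fcrls), between the cross labels from -0.12 to 0.046 (P2ry13) and -0.11 to 0.18 (Olfml3), for the cross against 3 months from -0.038 to 0.0070 (Cx3cr1), and with age from -0.11 to 0.0078 (P2ry13), -0.15 to 0.063 (Olfml3) and -0.25 to 0.025 (Fcrls). Only mice without amyloid were left out singly for the cross against 3 months.

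Over all genes, Fmn2 gave 5 calls at 3 months (2 with the block, 160 with DESeq2) and 166 at 8 months (3 with lane, 4 with the block, 5 with knock-out replicates 2 and 3 summed, 10 with the offset, 774 with DESeq2, 1122 without a filter, 4 to 3418 with 1 mouse left out), and the cross labels 261 (85 without replicates 4 and 5, 129 with the fold minimum, 398 without replicates 8 and 9, 477 with the offset, 739 with DESeq2). With the fold minimum 392 genes were called at 4 months (491 higher and 146 lower without it), 2905 in the cross against 3 months (4512 and 4187), 1074 with age (1105 and 1012, and 1 in all with lane) and 2032 for the difference of the amyloid effects (2206 and 2414). The fits without replicates 4 and 5, or 8 and 9, were chosen after seeing the data. The 8-month wild types include the shallowest library, and leaving it out gave the 3418 calls above.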
